A study of Rattus norvegicus albus with 14 samples.

Results

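The first day of exposure to rosiglitazone was followed in 4 RNA-seq libraries of cultured neonatal rat ventricular myocytes, 2 collected 0.5 h and 2 collected 24 h after the drug was added. The libraries were chosen by the agent and time given in their labels, out of 7 libraries in the series. As each library had been deposited in 2 splits, they are 8 of 14 deposited samples. The cells were heart ventricle cells of 1-day-old Sprague-Dawley rats, pooled over animals after preplating, a step that lets fibroblasts attach and be left behind and that the labels say gave more than 98% myocytes. They were kept in serum-free medium with insulin, transferrin and selenium. All 4 libraries had received 10 µmol/L rosiglitazone with 1% DMSO as the solvent, and their labels differ by time alone. The remaining libraries, 1 of 1% DMSO at 0.5 h and 2 of rosiglitazone at 48 h, entered the fit to share its estimate of spread, and the DMSO library is given beside the results as the only vehicle. No vehicle library of 24 h was analysed here, so an effect of the drug and an effect of the longer time in culture cannot be told apart.

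Rosiglitazone is a thiazolidinedione, a synthetic ligand of the nuclear receptor PPARγ. PPARs bind DNA as partners of RXR and raise transcription of genes for fatty acid uptake, storage and oxidation. Heart muscle draws most of its energy from fatty acids and holds more PPARα and PPARδ than PPARγ, which is the adipocyte form. Heart cells of newborn rats still divide for a few days after birth, and in culture they keep beating while fibroblasts and other cells that remain can spread between them.

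Library totals were 28074620 and 27360284 counts at 0.5 h and 24341710 and 25193522 counts at 24 h. At least 1 count was found for 16443 and 15440 genes at 0.5 h and for 14038 and 14058 genes at 24 h. A count of 0 leaves room for 3 counts, equal to 0.109 CPM in the shallower library of 0.5 h and 0.131 CPM in that of 24 h (CPM, counts scaled to a common library size after TMM, the unit of all levels here), and such limits cover counting error only. Replicates differed more at 24 h than at 0.5 h, with an SD of the log2 difference between replicates of 1.60 across genes against 0.812. Much of what follows differs in size between them, and each value is therefore given for replicate 1 and then replicate 2. All 10 cardiomyocyte markers were detected in all 4 libraries. Fibroblast genes were detected too, with Col1a1, the main chain of type I collagen, at 26742 and 27690.5 CPM at 0.5 h and 12556 and 15006 CPM at 24 h, and the platelet-derived growth factor receptor gene Pdgfra at 268 and 311 CPM and then 296 and 259 CPM. In bulk RNA, fewer cells of a type and less RNA per cell cannot be told apart. The labels do not say whether replicate libraries stem from separate dishes or preparations. P-values therefore measure only how far these particular libraries differ, and that spread may be technical.

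Over the first day 15 of 15655 tested genes passed the threshold, an adjusted p of 0.05 by edgeR's quasi-likelihood test with Benjamini-Hochberg adjustment. Of these 8 rose (0.0511% of genes tested) and 7 fell (0.0447%). The genes that rose included those for metallothioneins, a foreign-compound cytochrome P450, lipid enzymes and a calcium buffer. The genes that fell included immediate early genes, a CCN matricellular gene, an integrin and a basement membrane collagen. At an unadjusted p under 0.05 there were 1026 genes higher and 1428 lower. The adjusted calls rest on the spread shared with the other groups. With only the 2 groups of this comparison in the fit, or without the libraries of 48 h, 0 genes passed by edgeR (2337 and 2344 with an unadjusted p under 0.05), while DESeq2 in the full design called 411 higher and 789 lower. The count was also 0 by edgeR without 0.5 h replicate 1 or 2 (867 and 1142 with an unadjusted p under 0.05) and without 48 h replicate 1 or 2 (2356 and 2367), whereas leaving out 24 h replicate 1 or 2 raised it to 1008 and 496. All 15 genes kept their direction in each of these fits. Their nearest libraries were at least 4.22-fold apart, so these fits could hardly have reversed it.

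As few genes passed, the libraries were also compared by a rule with no p. A gene was counted as separated when its lowest level in the higher group was at least 2 times its highest level in the lower group and at least 1 CPM. By this rule 279 genes were higher at 24 h (1.78% of those tested) and 1129 were lower (7.21%). Of these, 214 of the higher (76.7%) and 981 of the lower (86.9%) were also at least 2-fold away from the DMSO library of 0.5 h in the same direction. A positive fold change was found for 7575 genes (48.4%), and the median log2 fold change over all genes was -0.03. The libraries of the 2 groups did not overlap in 7839 of the 15655 tested genes, so lack of overlap alone is common. The shares 1.78%, 7.21% and 48.4% are the background against which the gene groups are read. Counts by an unadjusted p under 0.05 are read against 1026 higher and 1428 lower of 15655 genes. Counts by DESeq2 are read against 411 higher and 789 lower. Genes said to have risen or fallen are the 15 past the threshold, and a gene given as separated, or by its levels alone, did not pass the test unless it is one of these. Counts of 0 in both libraries of 24 h were found for 152 genes with a mean of at least 1 CPM at 0.5 h, and 20 genes showed the opposite. Each 24 h library was also set on its own against both libraries of 0.5 h by the same rule, and the plot of both 24 h libraries against each other shows their values. Replicate 1 was higher for 1022 genes and lower for 2118, and replicate 2 for 1008 and 2419, counts that include the genes separated in both, while 31 and 45 genes moved 2-fold in opposite directions in the 2 libraries.

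**Figure D1:**
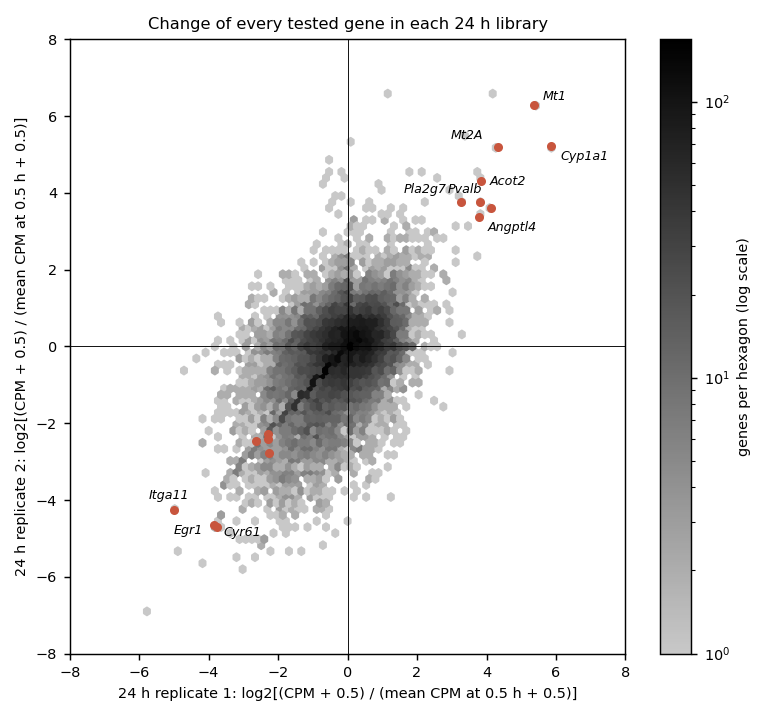
Log2 ratio of each 24 h library to the mean of the 0.5 h libraries, after adding 0.5 CPM, for all 15655 tested genes; the x axis is replicate 1, the y axis replicate 2, and grey hexagons hold 1 or more genes. The 15 genes past the threshold, in red, lie near the diagonal at both ends, while the cloud of other genes is wide across it. The test itself favours genes with large changes that are alike in both libraries.

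The largest increase among the 15 genes was that of Mt1, one of the metallothionein genes, whose products bind zinc and copper and buffer metals and oxidants. It was at 0.669 and 0.618 CPM at 0.5 h and at 46.3 and 88.5 CPM at 24 h, and it rose by 6.70 ± 0.47 on the log2 scale (SE; edgeR adjusted p = 0.0175). Mt2A was at 8.45 and 9.52 CPM and then 190.0 and 350.0 CPM, and rose by 4.91 ± 0.40 (edgeR adjusted p = 0.0193). For both genes the 24 h libraries lay far above the 0.5 h libraries and replicate 2 was the higher one. The DMSO library, at 3.36 CPM of Mt1 and 20.2 CPM of Mt2A, lay between the groups. At 48 h the levels were higher again, with 185 and 241 CPM of Mt1 and 992 and 1070.3 CPM of Mt2A. Metallothionein genes have related copies in the genome, so the assignment of reads among them is uncertain. Of 13 genes for metallothioneins and zinc transport, 2 were separated higher, these 2, and 1 lower, the zinc importer gene Slc39a10 (86.5 and 76.2 CPM, then 27.8 and 36.4 CPM). Slc30a1, the zinc exporter that zinc itself induces, was at 28.9 and 32.2 CPM and then at 21.5 and 52.4 CPM, so that its libraries overlapped.

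Cyp1a1, the cytochrome P450 that the aryl hydrocarbon receptor switches on to oxidise foreign aromatic compounds, rose from 0.669 and 1.31 CPM to 85.8 and 55.2 CPM (log2 fold change 6.15 ± 0.61, edgeR adjusted p = 0.0233). Replicate 1 was the higher library of 24 h here, and DMSO was at 2.26 CPM. Pvalb, the calcium-binding protein of fast skeletal muscle and of some neurons, rose from 0.282 and 0.254 CPM to 13.0 and 8.89 CPM (log2 fold change 5.32 ± 0.51, edgeR adjusted p = 0.0203). The DMSO library held 0.318 CPM, as low as the 0.5 h libraries with the drug. The skeletal muscle determination genes Myod1, Myog, Myf5 and Pax7 had 0 counts in all 4 libraries, and the DMSO library held 0.955 CPM of Myog. The gene AC128848.1 rose from 0.282 and 0.145 CPM to 9.62 and 9.16 CPM (log2 fold change 5.42 ± 0.56, edgeR adjusted p = 0.0281), though DMSO at 0.5 h was already at 2.44 CPM.

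The lipid genes past the threshold were Acot2, Angptl4 and Pla2g7. Acot2, a mitochondrial thioesterase that frees fatty acids from coenzyme A, was at 23.4 and 29.5 CPM at 0.5 h and at 382 and 534 CPM at 24 h (log2 fold change 4.12 ± 0.36, edgeR adjusted p = 0.0193). Angptl4, a secreted protein that blocks lipoprotein lipase, went from 35.9 and 43.1 CPM to 545 and 417 CPM (log2 fold change 3.61 ± 0.32, edgeR adjusted p = 0.0193). Pla2g7, a secreted phospholipase that degrades platelet-activating factor and oxidised phospholipids, was at 36.6 and 44.3 CPM and then at 396 and 557 CPM (log2 fold change 3.56 ± 0.32, edgeR adjusted p = 0.0193). In all 3 genes both libraries of 24 h stood apart from all others of 0.5 h, the DMSO library included. That library was above both drug libraries of 0.5 h for Angptl4 (95.7 CPM) and Pla2g7 (87.5 CPM) and between them for Acot2 (29.0 CPM). Across the 15 genes past the threshold, the nearest libraries of the 2 groups were 4.22-fold to 69.1-fold apart.

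**Figure D2:**
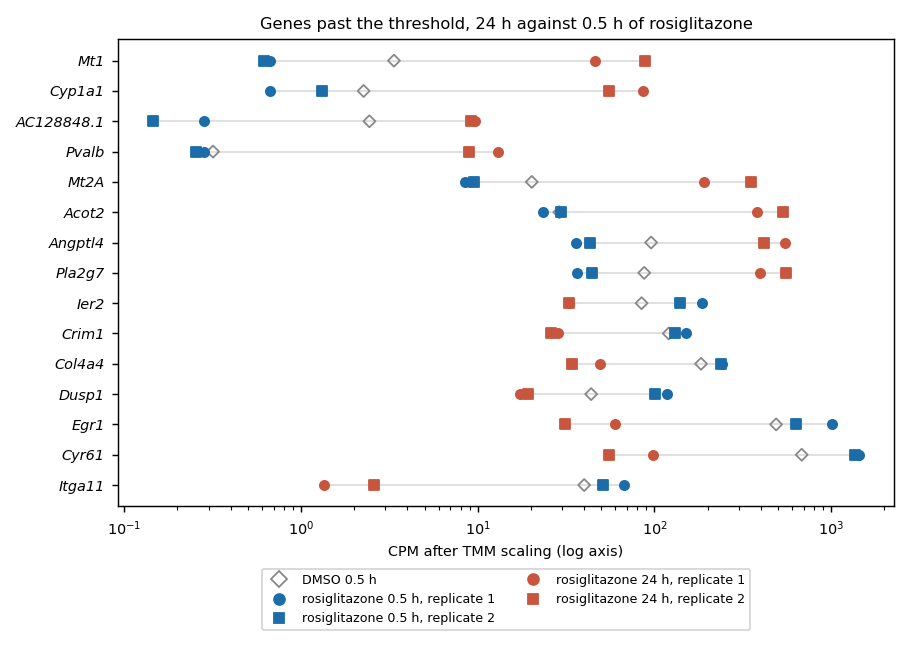
Levels of the 15 genes past the threshold in CPM after TMM scaling, on a log axis, one row per gene and one symbol per library. In every row the red symbols (24 h) stand apart from the blue symbols (0.5 h), by 4.22-fold to 69.1-fold between the nearest libraries, and the open diamond is the single DMSO library of 0.5 h.

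The genes that fell were led by Itga11, the α11 subunit of a collagen-binding integrin of fibroblasts, at 67.0 and 50.9 CPM at 0.5 h and 1.36 and 2.60 CPM at 24 h (log2 fold change -4.89 ± 0.46, edgeR adjusted p = 0.0203). Cyr61, a secreted CCN protein and target of the YAP coactivator, was at 1437 and 1370.3 CPM and then at 98.0 and 55.0 CPM (log2 fold change -4.20 ± 0.38, edgeR adjusted p = 0.0193). Egr1, a zinc finger immediate early factor, was at 1011 and 629 CPM and then at 60.1 and 31.2 CPM (log2 fold change -4.17 ± 0.44, edgeR adjusted p = 0.0286). For Cyr61 and Egr1 the drug libraries of 0.5 h were above DMSO (681 and 488 CPM), and the libraries of 24 h were below it.

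The other 4 genes that fell did so by smaller factors. Dusp1, a phosphatase that switches off MAP kinases, was at 118 and 100.2 CPM and then at 17.3 and 19.4 CPM (log2 fold change -2.57 ± 0.29, edgeR adjusted p = 0.0357). Its DMSO level of 43.8 CPM lay between. Col4a4, a chain of basement membrane collagen, was at 240.1 and 237 CPM and then at 49.0 and 34.3 CPM (log2 fold change -2.52 ± 0.28, edgeR adjusted p = 0.0357), with DMSO at 183 CPM. Crim1, a membrane protein that binds growth factors of the BMP and TGF-β family, was at 151 and 131 CPM and then at 28.3 and 25.9 CPM (log2 fold change -2.38 ± 0.27, edgeR adjusted p = 0.0383). Its DMSO level was 120.5 CPM. The immediate early gene Ier2 was at 185 and 139 CPM and then at 32.8 and 33.0 CPM (log2 fold change -2.30 ± 0.28, edgeR adjusted p = 0.0465). Its libraries of 24 h were nearly equal, and DMSO, at 84.5 CPM, lay between the groups.

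Genes that PPARs are known to activate were on balance higher at 24 h. Of 32 tested, 30 had a positive fold change, 8 were separated higher and 0 lower, and 2 rose (Acot2 and Angptl4), with a median log2 fold change of 0.63. The shift was larger in replicate 1 (median 1.04) than in replicate 2 (0.19). The separated members included Acot1, a cytosolic thioesterase, at 1.80 and 4.58 CPM and then at 41.9 and 33.2 CPM. Acot1 and Acot2 are near copies, so the split of reads between them is uncertain. Plin4, a coat protein of lipid droplets, was at 2.57 and 2.54 CPM and then at 20.5 and 9.46 CPM, and Pex11a, which divides peroxisomes, went from 6.09 and 5.02 CPM to 19.2 and 14.8 CPM. Neither passed the test (edgeR adjusted p = 0.272 and 0.139).

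The mitochondrial enzymes of fatty acid oxidation showed a narrower range. Hadha and Hadhb, the subunits of the trifunctional protein, were the 2 separated members of 19. Hadhb was at 443 and 531 CPM at 0.5 h and 1658 and 1328 CPM at 24 h (log2 fold change 1.62 ± 0.30, edgeR adjusted p = 0.0853), and Hadha at 361 and 398 CPM and then 972 and 873 CPM. Cpt1b, the muscle form of the enzyme that admits fatty acids to the mitochondrion, was at 88.5 and 98.5 CPM and then at 251 and 189 CPM (edgeR adjusted p = 0.147), with both libraries of 24 h above all of 0.5 h. The liver form Cpt1a, at 152 and 168 CPM and then 177 and 141 CPM, showed overlapping libraries. Of the 19 enzymes, 17 had a positive fold change, with a median of 0.93 and of 1.23 in replicate 1 and 0.23 in replicate 2.

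Other textbook PPAR target genes gave no separation. Pdk4, the kinase that closes pyruvate entry to the mitochondrion, was at 14.4 and 21.7 CPM and then at 21.9 and 38.8 CPM, so that 24 h replicate 1 was level with 0.5 h replicate 2. The fatty acid transporter gene Cd36 was at 115 and 162 CPM and then at 223 and 108 CPM, and Fabp4, a fatty acid carrier of adipocytes and capillaries, at 18.5 and 25.3 CPM and then at 36.6 and 10.8 CPM. In both genes the libraries of 24 h enclosed those of 0.5 h. Plin2, the lipid droplet coat of non-fat cells, was at 194 and 209 CPM and then at 273 and 223 CPM, without overlap but with DMSO at 248 CPM, between the libraries of 24 h. Adiponectin (Adipoq), a marker of fat cells, was at 0 counts in both libraries of 24 h. It did not pass the filter on low counts and was not tested, so no change is given for it.

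Among the receptors, Pparg was at 1.44 and 2.47 CPM at 0.5 h and 5.03 and 3.24 CPM at 24 h (edgeR adjusted p = 0.556). Ppara was at 3.77 and 6.61 CPM and then at 3.89 and 11.3 CPM, with overlap between the groups, and Ppard at 35.0 and 30.7 CPM and then at 54.5 and 48.0 CPM, with none. The coactivator gene Ppargc1a, which drives mitochondrial biogenesis, was the 1 separated member of 17 receptors and coregulators. It was lower, at 14.5 and 20.7 CPM and then at 4.24 and 2.26 CPM (log2 fold change -2.44 ± 0.54, edgeR adjusted p = 0.109).

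Most genes of the response to oxidants and foreign compounds had a positive fold change at 24 h. For the NRF2 antioxidant genes, 20 of 20 tested had a positive fold change, 8 were separated higher, and the median was 1.32, with 1.09 in replicate 1 and 1.30 in replicate 2. By edgeR 0 of the 20 passed after adjustment over all genes (15 had an unadjusted p under 0.05), and DESeq2 called 12. Nqo1, a quinone reductase, was at 113 and 134 CPM at 0.5 h and at 683 and 675 CPM at 24 h (log2 fold change 2.46 ± 0.32, edgeR adjusted p = 0.0613). Its DMSO level was 186 CPM. Txnrd1, the cytosolic thioredoxin reductase, was at 257 and 206 CPM and then at 682 and 1681 CPM, and the autophagy receptor gene Sqstm1 at 435 and 551 CPM and then at 2004 and 2968 CPM. Both were highest in 24 h replicate 2. Hmox1, the heme-degrading enzyme, was at 185 and 229 CPM and then at 389.9 and 473 CPM, but DMSO at 0.5 h was already at 425 CPM. The vehicle library thus lay between the libraries of 24 h for this gene.

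Of 11 genes of the aryl hydrocarbon receptor battery, 8 had a positive and 3 a negative fold change, 6 were separated higher and 1, Cyp1a1, rose. Cyp1b1, a related P450 of heart and vessel cells, was at 301 and 315 CPM and then at 787 and 963 CPM, with DMSO at 427 CPM. The aldehyde dehydrogenase gene Aldh3a1 was at 1.69 and 3.53 CPM and then at 39.1 and 16 CPM. Ahrr, the repressor that closes the feedback on this receptor, was at 5.64 and 6.90 CPM and then at 13.8 and 33.1 CPM (edgeR adjusted p = 0.171). The glutathione transferase gene Gsta2 had 0 counts at 0.5 h and 1.14 and 2.83 CPM at 24 h, at least 18.2-fold higher (against 3 counts in the shallower 0.5 h library). Nqo1 belongs to this list and to the NRF2 list, so their counts are not independent.

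Protein folding and amino acid stress genes were also higher. Of 22 genes of the unfolded protein response, 20 had a positive fold change and 4 were separated higher (median 0.68). Dnajb9, a co-chaperone of the endoplasmic reticulum, was at 64.2 and 75.2 CPM at 0.5 h and 264 and 355 CPM at 24 h (log2 fold change 2.15 ± 0.28, edgeR adjusted p = 0.0613). Hspa5, the main chaperone there, was at 1564 and 1505 CPM and then at 3283 and 4724 CPM, and Ddit3, the factor CHOP, at 45.5 and 59.6 CPM and then at 133 and 318 CPM. Xbp1, the factor spliced in this response, was at 99.4 and 107 CPM and then at 87.3 and 84.9 CPM, so that both libraries of 24 h lay below those of 0.5 h. Among 24 genes of the ATF4 pathway 6 were separated higher and 22 were positive (median 0.59). Gdf15, a secreted stress hormone, was at 30.8 and 21.6 CPM and then at 120.2 and 611 CPM (log2 fold change 3.80 ± 0.72, edgeR adjusted p = 0.0891), and the pseudokinase gene Trib3 at 75.0 and 84.6 CPM and then at 185 and 367 CPM. Both were far higher in 24 h replicate 2 than in replicate 1. The cytosolic chaperone list had 1 separated member of 14, the small heat shock gene Hspb8 (82.5 and 79.4 CPM, then 229.5 and 421 CPM), and 14 of 14 were positive (median 0.60).

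**Figure D3:**
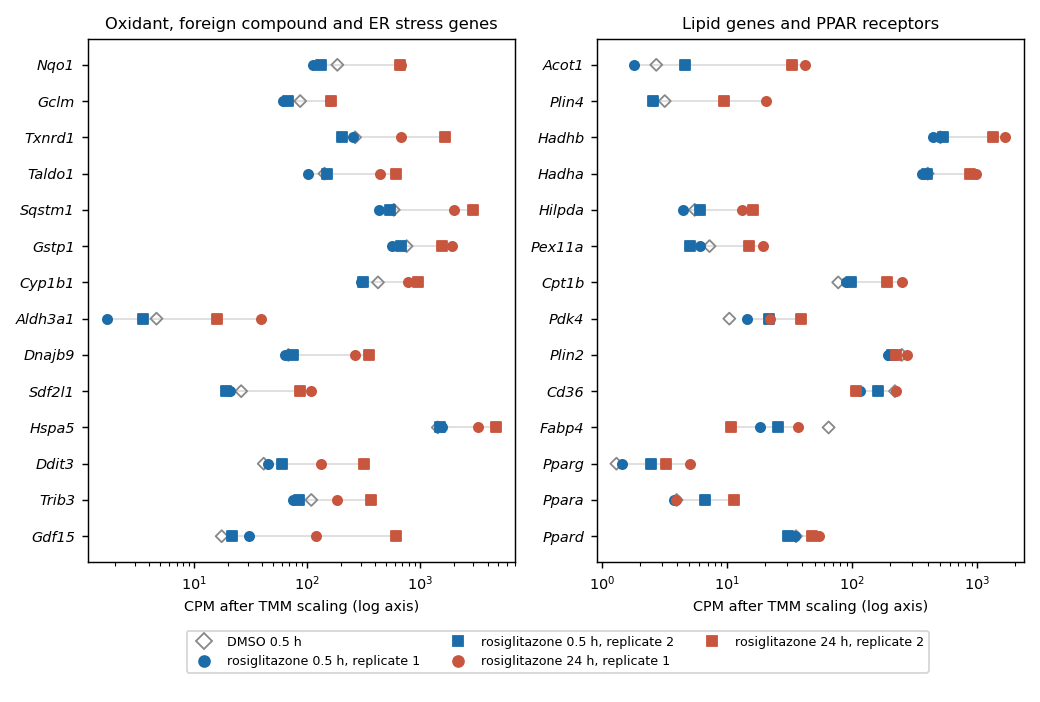
Levels of stress genes (left) and of lipid genes and PPAR receptors (right) in CPM after TMM scaling, on log axes, one symbol per library. Red symbols (24 h) lie right of all blue symbols (0.5 h) for each stress gene shown, while Pdk4 is level between 24 h replicate 1 and 0.5 h replicate 2 and the red symbols of Cd36 and Fabp4 enclose the blue ones.

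Immediate early genes, which are transcribed within minutes of a stimulus and then decay, were lower at 24 h. Of 24 genes of the AP-1, Egr and Nr4a families, 9 were separated lower and 0 higher, 2 fell (Egr1 and Ier2), and the median was -0.77. Fos was at 227 and 173 CPM at 0.5 h and 6.21 and 4.75 CPM at 24 h (log2 fold change -5.19 ± 0.70, edgeR adjusted p = 0.0661), with DMSO at 78.8 CPM. Its relative Fosb was at 91.8 and 30.4 CPM and then at 4.42 and 1.92 CPM, and here DMSO was the highest library, at 123 CPM. The partner gene Jun was at 325 and 211 CPM and then at 87.7 and 63.1 CPM. Among 17 MAP kinase phosphatases and feedback genes 13 had a negative fold change. Dusp1 fell, and Spry1, a feedback inhibitor of growth factor receptors, was separated lower (109 and 119.7 CPM, then 46.3 and 7.5 CPM). Dusp2 was instead separated higher, at 3.49 and 4.83 CPM and then 11.8 and 39.7 CPM (edgeR adjusted p = 0.207).

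The list of CCN genes and of genes that YAP and TEAD factors are known to drive had the same direction throughout. All 17 tested had a negative fold change, 8 were separated lower, and 2 fell, Cyr61 and Crim1 (median -1.52, with -1.29 in replicate 1 and -1.86 in replicate 2). Ctgf, the second CCN gene, was at 2145 and 1543 CPM and then at 755 and 307 CPM, with DMSO at 1196 CPM. Amotl2, an inhibitor of YAP that YAP induces, was at 389 and 299.7 CPM and then at 78.1 and 34.1 CPM (edgeR adjusted p = 0.0792), and the CCN gene Nov at 179.8 and 159 CPM and then at 19.5 and 8.74 CPM (edgeR adjusted p = 0.0783). Ankrd1, a stretch-responsive protein of the heart sarcomere, was at 3485 and 2595 CPM and then at 820.1 and 187 CPM. For each of these 4 genes the DMSO library of 0.5 h was also above both libraries of 24 h.

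In the lists of TGF-β, BMP, Notch and Wnt genes the separated members were all lower. Over all genes tested, 1129 of 1408 separated genes were lower too. Of 17 TGF-β genes 4 were separated lower, among them the ligand genes Tgfb2 (275 and 195 CPM, then 67.5 and 37.0 CPM) and Tgfb3 (279 and 224 CPM, then 49.3 and 30.4 CPM), whereas Tgfb1 was at 81.4 and 93.5 CPM and then at 51.7 and 54.6 CPM. Of 18 Notch and Wnt genes 5 were separated lower. They included the Notch ligand gene Jag1 (229 and 180.3 CPM, then 38.2 and 45.5 CPM) and the Notch effector Heyl (41.4 and 36.6 CPM, then 5.38 and 3.13 CPM). Of 16 genes for BMPs and Id factors 2 were separated lower (12.5%, against 7.21% of all genes tested). These included the ligand gene Bmp4 (48.0 and 49.6 CPM, then 15.6 and 11.2 CPM). None of these genes passed the test (edgeR adjusted p = 0.0831 for Tgfb2, 0.0854 for Tgfb3, 0.288 for Tgfb1, 0.0792 for Jag1, 0.0708 for Heyl and 0.0892 for Bmp4).

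Heart muscle genes were lower at 24 h in unequal measure. Of 24 sarcomere genes 7 were separated lower, 0 higher and 19 had a negative fold change, but the median was -0.73 in replicate 1 and -2.33 in replicate 2 (fitted median -1.09). Myh6, the fast myosin of the rodent heart, was at 1212 and 1209 CPM at 0.5 h and at 385 and 90.5 CPM at 24 h (log2 fold change -2.35 ± 0.75, edgeR adjusted p = 0.202). The slow fetal myosin gene Myh7 was at 2913 and 2373 CPM and then at 716 and 129 CPM, and Myom2, a protein of the M band, at 202 and 212 CPM and then at 34.6 and 5.39 CPM. Cardiac troponin T gave another picture, for Tnnt2 was at 2104 and 2198 CPM and then at 3215 and 1057 CPM, above the 0.5 h level in replicate 1 and below it in replicate 2. The summed level of the sarcomere genes was 19006 and 18310.4 CPM at 0.5 h and 16279 and 4305 CPM at 24 h. Replicate 1 thus kept most of the level of the 0.5 h drug libraries. The DMSO library of 0.5 h held 11095 CPM, below 24 h replicate 1 and above replicate 2. For Myh6 and Myh7 that library was at 963 and 1307 CPM, above both libraries of 24 h.

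The calcium release channel gene Ryr2 was lower in both replicates alike, at 409.6 and 322 CPM and then at 76.0 and 63.1 CPM (log2 fold change -2.39 ± 0.43, edgeR adjusted p = 0.0812). The calcium pump gene Atp2a2 was at 2199 and 2754 CPM and then at 1506 and 1337 CPM. Phospholamban (Pln), the inhibitor of that pump, was at 997 and 1249 CPM and then at 1290.1 and 80.4 CPM, with 24 h replicate 1 the highest and replicate 2 the lowest of the 4. Of 21 calcium handling genes 18 had a negative fold change and 1 rose, Pvalb. Separated lower were 2 (9.52%), Ryr2 and the exchanger gene Slc8a1. The potassium channel gene Kcnd3 was at 51.9 and 40.7 CPM and then at 5.46 and 0.339 CPM. It was the 1 separated member of 17 channel genes (5.88%). Both shares are near the 7.21% of all genes tested. Among 17 intercalated disc genes 5 were separated lower, such as the desmosome gene Dsp (366 and 337 CPM, then 134 and 146 CPM), whereas the gap junction gene Gja1 was at 363 and 465 CPM and then at 1037 and 287 CPM. Of 18 cardiac transcription factors 3 were separated lower (16.7%, against 7.21% of all genes tested). They included Tbx20 (155 and 152 CPM, then 14.8 and 46.7 CPM) and Myocd, a coactivator of serum response factor (43.9 and 29.5 CPM, then 5.20 and 7.91 CPM). Gata4 was at 243 and 214 CPM and then at 166 and 131 CPM. Nkx2-5 was at 32.6 and 49.5 CPM and then at 82.9 and 25.4 CPM. Tbx5 was at 11.9 and 12.6 CPM and then at 13.3 and 4.52 CPM. For Nkx2-5 and Tbx5 the libraries of 24 h enclosed those of 0.5 h.

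The fetal and hypertrophy list had 6 members separated lower and 1 higher (Gdf15) of 16. The natriuretic peptide genes, which wall stress induces, were not among them. Nppa was at 1657 and 1448 CPM and then at 1640.4 and 720.1 CPM, and Nppb at 386 and 258 CPM and then at 152 and 21.0 CPM. For Nppa, 24 h replicate 1 lay within the range of 0.5 h. For Nppb both libraries of 24 h were lower, replicate 2 by the wider margin. The 10 cardiomyocyte markers together held 11280.5 and 10578 CPM at 0.5 h and 9081 and 2446 CPM at 24 h, and 6581 CPM in DMSO. Their median log2 ratio to 0.5 h was 0.14 in replicate 1 and -1.98 in replicate 2. Transcripts of the mitochondrial genome went the same way, with a median of 0.57 and -1.84, and Mt-co1, a subunit of cytochrome oxidase, at 6007 and 5391 CPM and then 11422 and 3589.7 CPM. The part of this difference between the 24 h libraries in the muscle gene values was not tested.

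Genes of cell division were lower in both replicates. All 27 tested genes of mitosis and the kinetochore had a negative fold change and 20 were separated lower (median -2.45, with -1.97 in replicate 1 and -3.03 in replicate 2), though 0 passed after adjustment over all genes by edgeR (22 had an unadjusted p under 0.05, and DESeq2 called 20). Anln, a scaffold of the cleavage furrow, came nearest, at 34.8 and 27.3 CPM and then 3.54 and 2.79 CPM (log2 fold change -3.29 ± 0.41, edgeR adjusted p = 0.0531). The mitotic kinase gene Plk1 was at 39.6 and 40.1 CPM at 0.5 h, level with DMSO at 38.8 CPM, and at 3.80 and 4.86 CPM at 24 h. Kif11, a motor that pushes the spindle poles apart, was at 80.8 and 68.4 CPM and then at 13.0 and 6.41 CPM. In these genes the 3 libraries of 0.5 h were close to each other, and both of 24 h stood well below.

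Of 27 genes of DNA replication 12 were separated lower and 24 had a negative fold change (median -1.25). The replication helicase subunit genes Mcm3 and Mcm5 were among them, Mcm5 at 58.5 and 55.9 CPM and then at 8.52 and 4.79 CPM. Mcm10, which helps to start the helicase, was at 21.1 and 17.1 CPM and then at 1.84 and 1.81 CPM (edgeR adjusted p = 0.0757). Pcna, the sliding clamp of the polymerase, which repair also uses, was at 116 and 119.5 CPM and then at 155 and 99.9 CPM, with overlap. Of 15 genes of CDK inhibitors and growth arrest 10 had a negative fold change (median -0.37), 2 were separated higher and 3 lower. The higher were the cell cycle inhibitor gene Cdkn2b (38.9 and 49.1 CPM, then 108 and 114 CPM) and the arrest gene Gadd45a (69.2 and 70.1 CPM, then 203 and 358 CPM). The lower included another arrest gene, Gadd45g (90.5 and 66.3 CPM, then 28.5 and 31.0 CPM), and Rbl1, a relative of the retinoblastoma protein (20.9 and 19.0 CPM, then 5.20 and 4.26 CPM). Cdkn1a, the inhibitor p21, was at 157 and 157 CPM and then at 238 and 249 CPM, without overlap but under the 2-fold margin. The remaining member of this list separated lower was cyclin D1 (Ccnd1), which opens the cycle and is no arrest gene. It was at 118 and 106 CPM and then at 45.7 and 35.4 CPM. As the cells that divide cannot be known from bulk RNA, the counts say nothing of whether myocytes or other cells carried these transcripts.

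**Figure D4:**
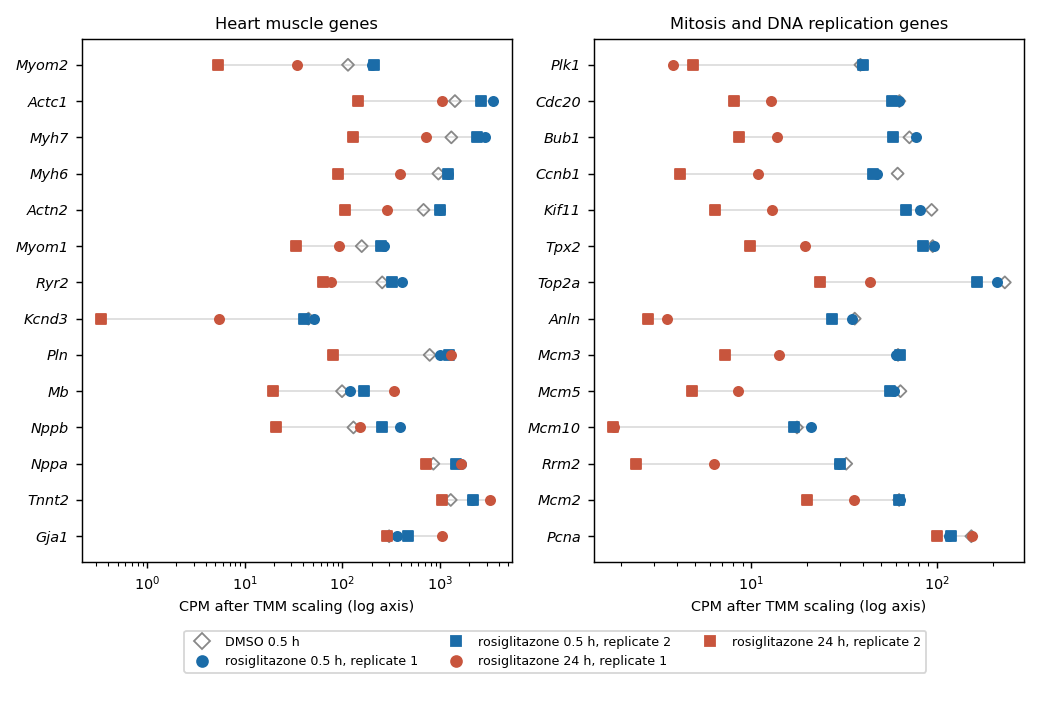
Levels of heart muscle genes (left) and of mitosis and DNA replication genes (right) in CPM after TMM scaling, on log axes, one symbol per library. The 24 h libraries (red) lie far apart for some muscle genes, with Pln at 1290.1 CPM in replicate 1 and 80.4 CPM in replicate 2, and close together for others, with Ryr2 at 76.0 and 63.1 CPM, and among the division genes Plk1 was at 3.80 and 4.86 CPM.

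Most collagen, integrin and laminin genes were lower at 24 h, with list medians of about the same size in both libraries. Of 20 collagen genes 19 had a negative fold change, 6 were separated lower and 1 fell, Col4a4 (median -0.90, with -1.11 and -0.76 in replicates 1 and 2). Col12a1, a collagen that lies on the surface of fibrils, was at 999.7 and 666 CPM and then at 96.2 and 137 CPM, and Col8a1, a short-chain collagen of vessel walls, at 343 and 283 CPM and then at 91.5 and 59.4 CPM (edgeR adjusted p = 0.0708). Col3a1, a main fibril collagen, was at 18347 and 18791 CPM and then at 14489.5 and 12457 CPM. Col4a1, another basement membrane chain, showed overlapping libraries, at 7062 and 4752 CPM and then at 3731 and 7203 CPM. Of 22 integrin and laminin genes 20 were negative, 7 were separated lower and 1 fell, Itga11. Itga4, a receptor for fibronectin and VCAM1, was at 64.7 and 57.3 CPM and then at 7.34 and 7.42 CPM. Itgb1, the shared β1 subunit, was at 3152 and 2668 CPM and then at 1554 and 1582 CPM. Among 19 matrix proteases and inhibitors 2 were separated lower (10.5%, against 7.21% of all genes tested). They were Timp3 (118 and 117 CPM, then 20.9 and 17.1 CPM) and the urokinase gene Plau (26.8 and 41.9 CPM, then 7.43 and 1.62 CPM). The median of this list was -0.65 in replicate 1 and -1.08 in replicate 2, and 4 members had a positive fold change. Mmp2 was higher in both libraries of 24 h (1415 and 1693 CPM, then 1975 and 1800 CPM). Mmp14 overlapped (751 and 802 CPM, then 851 and 550 CPM).

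Markers of the other cells that a heart culture can hold were mostly lower as well. Of 14 smooth muscle and pericyte markers 14 had a negative fold change and 10 were separated lower (median -2.14, also with Kcnmb1 at its bound), and their summed level was 5766 and 5525 CPM at 0.5 h and 2318 and 1226 CPM at 24 h. Smooth muscle actin, Acta2, which immature myocytes and activated fibroblasts also use, was at 2034 and 1889.7 CPM and then at 502 and 136 CPM. Kcnmb1 had 0 counts in both libraries of 24 h. Of 12 endothelial markers 5 were separated lower, and the list summed to 455 and 482 CPM and then to 239 and 173 CPM. The cadherin of endothelium, Cdh5, was at 36.8 and 44.0 CPM and then at 14.5 and 4.41 CPM, and Vwf was at 0 in replicate 2.

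Of 12 epicardial and mesothelial markers 5 were separated lower (summed level 442 and 451 CPM, then 274 and 117 CPM), and Krt7 and Muc16 were at 0 in both libraries of 24 h. Of 14 macrophage markers 3 were separated lower, with Csf1r, the receptor of their growth factor, at 33.4 and 37.8 CPM and then at 15.5 and 14.2 CPM. In DMSO Csf1r stood at 109 CPM, above all 4. The macrophage list summed to 332 and 457 CPM at 0.5 h and 539 and 186 CPM at 24 h, and Cd163 was at 0 in both libraries of 24 h. Of 14 fibroblast markers 4 were separated lower, and the list summed to 51349 and 53019.9 CPM and then to 36384 and 33177 CPM. Decorin (Dcn), a small matrix proteoglycan of fibroblasts, was instead at 808 and 994 CPM and then at 2156 and 1712 CPM, higher in both libraries of 24 h. Thy1 and Mfap5 were at 0 in 24 h replicate 2. None of the markers named in these 2 paragraphs passed the test, and the part of a change in cell makeup in the muscle, matrix and division genes above was not tested.

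Among separated genes outside these groups, the largest increase was that of Star, which carries cholesterol into the mitochondrion for steroid synthesis. It was at 3.31 and 1.89 CPM at 0.5 h and at 54.1 and 287 CPM at 24 h (log2 fold change 6.03 ± 0.85, edgeR adjusted p = 0.0678), with a wide gap between the libraries of 24 h, both of them above all of 0.5 h. Vat1l was at 1.2 and 1.31 CPM and then at 23.1 and 43.0 CPM (edgeR adjusted p = 0.0708), and Rhov, the gene of a small GTPase, at 0.599 and 1.02 CPM and then at 11.4 and 18.7 CPM, with DMSO at 4.31 CPM. The glutamine transporter gene Slc38a3 and the carboxylesterase gene Ces1f reached 5.51 and 5.77 CPM and 10.7 and 25.8 CPM at 24 h. The glycosyltransferase gene Galnt3 and the kinase gene Stk32a were at 4.37 and 2.05 CPM in replicate 1 but at 33.2 and 24.0 CPM in replicate 2.

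In the other direction, Edn1, which encodes the vasoconstrictor and growth peptide endothelin 1, was at 69.0 and 51.9 CPM at 0.5 h, at 19.9 CPM in DMSO, and at 0.612 and 0 CPM at 24 h (edgeR adjusted p = 0.0678). There were 6 genes with a mean of at least 5 CPM at 0.5 h and 0 counts in both libraries of 24 h. Against 3 counts in the shallower 24 h library, Klhl38 was at least 43.6-fold lower, Ifit1bl at least 43.3-fold, Tmem71 at least 42.4-fold, Siglec10 at least 40.7-fold, Pkd1l1 at least 38.9-fold and Galnt5 at least 38.3-fold. Their levels at 0.5 h were between 2.87 CPM (Pkd1l1, replicate 2) and 7.33 CPM (the same gene, replicate 1). None of these 6 genes passed the test, the smallest edgeR adjusted p being 0.0783 for Siglec10. The mitotic motor gene Kif14 was at 14.8 and 6.03 CPM and then at 0.393 and 0 CPM, and Nnat, an imprinted gene for a small membrane protein, at 6.27 and 8.76 CPM and then at 0.262 and 0 CPM.

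Over the 62 lists examined, the median was negative in both libraries of 24 h for 28 lists and positive in both for 20, while it had opposite signs in the 2 libraries for 13, and 1 list had a median of 0 in a library. The lists with opposite signs included creatine kinase and energy buffering (0.67 and -1.0), the nuclear genes of oxidative phosphorylation (0.85 and -0.30) and cholesterol synthesis and uptake (0.52 and -0.51). For these lists the direction depended on the library.

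**Figure D5:**
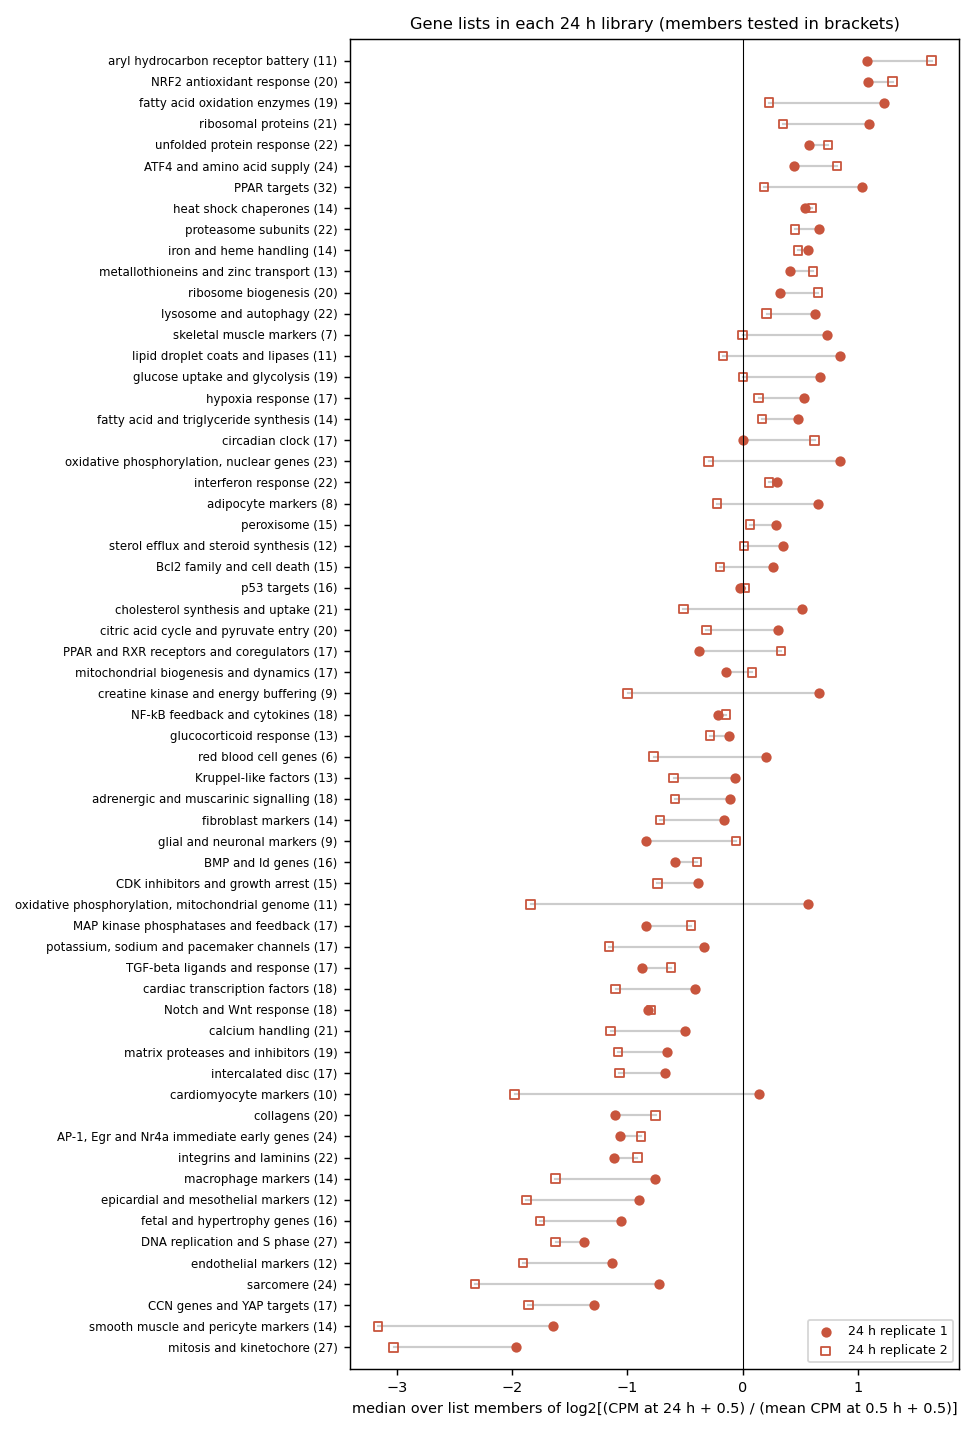
Median over the members of each of the 62 lists of the log2 ratio of a 24 h library to the mean of the 0.5 h libraries, after adding 0.5 CPM; filled circles are replicate 1, open squares replicate 2, and the number of members tested is in brackets. The lists of mitosis and of smooth muscle markers lie lowest in both libraries, the aryl hydrocarbon and NRF2 lists lie above 1 in both, and the cardiomyocyte markers and mitochondrial genome transcripts show the widest gaps between libraries.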

How the data were processed

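RNA-seq of 7 libraries was analysed from the deposited raw read counts per gene, whole numbers from a table with columns for 2 splits of each library. Per the labels' protocols, libraries were made from total RNA with a directional kit. FastQC 0.11.5, cutadapt 1.11, HTSeq and DESeq2, and the builds Rnor_6.0 and hg19, are named in the submitters' processing notes. Neither the aligner nor the strand setting is given in the sources used here, so overlapping and antisense genes cannot be told apart. Gene IDs are rat Ensembl IDs. The authors' deposited log2 fold changes, with standard errors, p-values and adjusted p-values per the file headers, were used only to compare signs, and the 15 genes named as past the threshold had the same sign there. An adjusted p under 0.05 was listed for 6239 genes in the authors' deposited table.

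No difference beyond sampling noise was found between splits of a library (chi-square test over genes, 0.963 to 1.02 per degree of freedom, p of 0.112 or more in 7 pairs), which were summed to 1 sample. Counts were fitted with edgeR 4.0.16 in R 4.3.3 (TMM scaling, its filter on low counts, robust quasi-likelihood test, 4 groups, 3 residual degrees of freedom), and the contrast was rosiglitazone 24 h minus 0.5 h. The Benjamini-Hochberg adjustment covered all 15655 genes. SE is of the log2 fold change. It was derived from the test, as the size of the fold change divided by the square root of the F statistic. CPM are counts scaled to the TMM-adjusted library size. DESeq2 1.42.0, other scalings, filters, thresholds and margins, fewer groups, a replicate block and leaving out libraries were alternatives.

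The comparison and the 62 gene lists (1114 entries, 1090 matched by symbol, 1050 tested) were chosen with earlier results of these data known. Lists are described by counts and medians without a set test. Per-library medians use log2 ratios to the mean of 0.5 h after adding 0.5 CPM. Genes named come mostly from a pool set by rule. It holds the genes past the threshold, up to 5 separated members and the first 3 members of each list, and 15 fixed PPAR and heart genes. Among separated genes with a mean of at least 5 CPM in the higher group, the 12 largest increases and 12 largest decreases were added. The text names only part of this pool. Members left out include separated genes, such as Carns1, and genes whose libraries overlapped, such as Cd68. Markers at 0 counts are named beside these.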

Additional observations from a re-analysis of the deposited data

How the results depend on the processing

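The calls depended on the fit. Main counts were 8 genes higher and 7 lower. They were 70 and 136 at a threshold of 0.10, 92 and 242 with no filter on low counts, 411 and 789 by DESeq2, 8 and 2 without DMSO, and 8 and 8 with DESeq2 size factors. With only the 2 groups in the fit, or without 48 h, both were 0 by edgeR. The adjusted p of the 15 genes was then 0.129, and 0.0726 to 0.0891. Leaving out 1 library of 0.5 or 24 h gave 0 to 314 higher and 0 to 694 lower, with 0 and 0 without either 0.5 h replicate (adjusted p of the 15 genes 0.242 to 0.605 and 0.134 to 0.246). Leaving out either library of 48 h, an alternative chosen after seeing the data, also gave 0 and 0 (0.0716 to 0.0805). With 1 library left in a group, that library is assumed to vary like the others. The replicate numbers did not pair the samples (r = -0.083 between deviations at 0.5 and 24 h), and with the replicate number as a block 1 gene was higher and 0 lower (1775 with an unadjusted p under 0.05). All 15 genes kept their direction in all of these fits. Their nearest libraries were at least 4.22-fold apart, so these fits could hardly have reversed it.

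Separated genes, 279 higher and 1129 lower, were 773 and 1815 at a margin of 1.5-fold, 58 and 359 at 4-fold, and 200 and 688 among genes with a mean of at least 5 CPM. Without 1 library they were 409 to 1022 and 1476 to 2419. Of 744 list medians under alternatives 26 changed sign, in 16 lists. Of the 37 lists with a median of 0.5 or more in size, 3 had such a change: lipid droplet, red blood cell and cardiomyocyte marker lists. The list of cardiomyocyte markers turned without 24 h replicate 2 (0.12). The 3587 single-gene values under alternatives include genes for which reversal was not scored. For genes past the threshold or separated 0 values reversed. Their nearest libraries were at least 2-fold apart, so a reversal was hardly possible. Depth limits what can be shown for genes near the floor of 3 counts. The cause of these differences was not tested.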

Other observations

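Genes for making and degrading proteins were higher at 24 h by small amounts. All 22 proteasome subunit genes had a positive fold change (median 0.57, with 0.66 in replicate 1 and 0.46 in replicate 2), though 0 were separated and 0 passed by edgeR (8 had an unadjusted p under 0.05, and DESeq2 called 2). Psmd1, a subunit of the regulatory particle, was at 270.1 and 276 CPM at 0.5 h and 357 and 380.0 CPM at 24 h. All 21 ribosomal protein genes were positive too (median 0.82), with Rplp0 at 1855 and 2648 CPM and then 4777 and 2854 CPM, although these genes have many near-identical copies in the genome and their counts are uncertain. Of 20 ribosome biogenesis genes 19 were positive and 1 was separated higher, Wdr12 (38.2 and 40.8 CPM, then 84.5 and 115 CPM). Glucose uptake genes included 2 separated higher of 19, the transporter gene Slc2a1 (88.5 and 120.3 CPM, then 316 and 357 CPM) and the hexokinase gene Hk2 (62.2 and 69.8 CPM, then 166 and 261 CPM). The insulin-sensitive transporter gene Slc2a4 was at 6.90 and 10.5 CPM and then at 22.7 and 4.97 CPM, on both sides of the 0.5 h level.

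Of 22 interferon response genes 2 were separated higher, Isg15 (6.23 and 5.67 CPM, then 21.1 and 18.7 CPM) and the antiviral gene Rsad2 (4.51 and 6.94 CPM, then 14.7 and 41.2 CPM). Chrm2, the gene of the muscarinic receptor that slows the heartbeat, was separated lower (66.5 and 69.9 CPM, then 10.8 and 6.48 CPM), as were the phosphodiesterase genes Pde3a (39.9 and 41.3 CPM, then 5.11 and 11.5 CPM) and Pde4d (32.2 and 32.1 CPM, then 8.61 and 12.2 CPM), whereas the β1-adrenergic receptor gene Adrb1 was at 5.81 and 6.36 CPM and then at 9.70 and 6.14 CPM. Apoe, an apolipoprotein that carries cholesterol between cells, was separated higher (177 and 263 CPM, then 835 and 552 CPM). The sterol exporter gene Abca1, at 161 and 203 CPM and then 126 and 103 CPM, was below its 0.5 h level in both libraries of 24 h. Among p53 targets Gadd45a was separated higher, whereas Btg2 (152 and 101 CPM, then 43.1 and 28.9 CPM) and Plk2 (489.7 and 253 CPM, then 57.1 and 53 CPM), which are also immediate early genes, were separated lower. None of these genes passed the threshold, and the smallest edgeR adjusted p-values were 0.0792 for Plk2, 0.0812 for Slc2a1 and 0.0869 for Hk2, with 0.0792 for Gadd45a.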
